A study of Homo sapiens and Mus musculus with 10 samples.

Results

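The genes described here encode 10 transcription factors and cofactors of the B-cell lineage: EBF1, SPI1 (which encodes PU.1), SPIB, POU2AF1, POU2F2, IRF4, IRF8, IKZF1, IKZF3 and BACH2. They were taken by name from GENCODE release 44, and all 10 of 10 were found among 19970 protein-coding genes of the autosomes and X. Accessible chromatin around them was read from bulk ATAC-seq, in which the Tn5 transposase inserts adapters where DNA is open. The report uses 8 human libraries, 2 replicates for each of 4 established lines, and no label names a genotype change or a treatment. GM12878 is a lymphoblastoid line of B-cell origin immortalised by Epstein-Barr virus. K562 is an erythroleukaemia line from a chronic myeloid leukaemia, HEK293T an embryonic kidney line with the SV40 large T antigen, and HFF1 a foreskin fibroblast culture. The labels give 1 culture medium for the blood lines and another for the adherent lines, so line and medium cannot be told apart. Nothing says that replicates were separate cultures, so p-values measure only the spread between these libraries, which may be technical.

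B cells arise through a network of factors that act in order. PU.1 and the Ikaros proteins open the lymphoid programme, EBF1 commits progenitors to the B lineage, the octamer factors and their coactivator act at immunoglobulin and other B-cell genes, and IRF4, IRF8 and BACH2 steer the choice between germinal centre, memory and plasma cell fates. Many of these genes have more than 1 promoter and are controlled by enhancers spread over their introns and flanks, which makes their loci a dense source of regulatory DNA. An ATAC-seq peak marks open DNA. It does not measure RNA or protein.

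The lists held 101704 and 103715 peaks in GM12878, 78601 and 71241 in K562, 52438 and 52137 in HEK293T, and 127359 and 120344 in HFF1. Read numbers were recovered from the deposited fold and p-value of each peak, and the lowest common background of a library, here the background level, stands for its depth. That level was 1.71 and 1.73 reads in GM12878, 2.21 and 1.97 in K562, 0.465 and 0.466 in HEK293T, and 2.43 and 2.06 in HFF1, so HEK293T was the shallowest. A place with no peak in HEK293T was therefore less well measured than in the other lines. B-cell markers fitted the label of GM12878, since 8 of 8 had a start-site peak there and the canonical promoters of CD79A, CD79B and MS4A1 had one in GM12878 alone. Among 6 T-cell markers, 2 had a start-site peak in GM12878 and CD3E, CD2, CD5 and CD7 were called in no line. Yet by the test described below all 6 had more peaks around them in GM12878 than in the other lines (22.7% of all genes). Their summed level was 135 and 134 peaks per 100000 in GM12878, 112 and 132 in K562, and 67.1 to 76.4 in HEK293T and HFF1. The windows of CD3D, CD3E and CD3G overlap, so this sum counts some peaks more than once and the 6 genes are not separate counts. CD3D and CD3G, for example, both had 6 and 5 peaks in HEK293T and 12 and 14 in HFF1. The part of the T-cell markers in the results was not tested. The erythroid gene GATA1 had a start-site peak in K562 alone, the kidney regulator PAX2 in HEK293T alone, and the collagen gene COL3A1 in HFF1 alone.

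All 10 genes had a peak within 1 kb of the canonical promoter in both GM12878 libraries, where 66.7% of all genes did. The count was 6 of 10 in K562 (65.2% of all genes), 5 in HEK293T (63.3%) and 8 in HFF1 (72.0%). None of the 10 canonical promoters had a peak in GM12878 alone, a pattern seen at 1.79% of canonical promoters. Those of EBF1, POU2F2 and BACH2 had one in all 4 lines (54.7% of all genes), and that of SPI1 in GM12878 and K562 only (0.601%). Peaks within 1 kb of these start sites were thus shared in part with lines of other tissues. The height of a peak is given below as its recovered reads divided by the background level of its library. Heights also depend on the share of reads that fell outside peaks, so they are described and were not tested. The order of the lines is that of this height only. By the authors' deposited fold, which is set against local background, GM12878 was the highest line at 2 of the 10 canonical promoters, SPI1 and IRF4, and it was the lowest line with a peak at EBF1, SPIB, POU2AF1, POU2F2 and IKZF3.

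**Figure D1:**
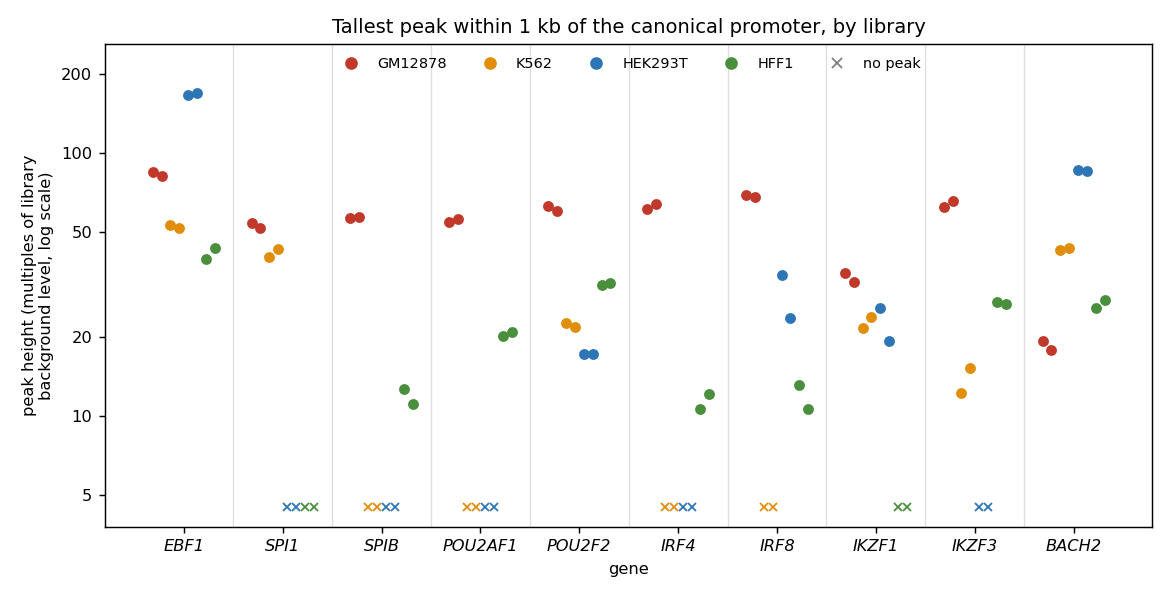
Height of the tallest peak within 1 kb of the canonical promoter (y axis, multiples of the library's background level, log scale) for each gene (x axis) in the 8 libraries, with crosses at the bottom for libraries without a peak. All 20 GM12878 points are peaks, and by this height, though not by the deposited fold, GM12878 is the highest line at 8 of 10 genes and the lowest at BACH2.

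Peaks were then counted in each gene body and the 100 kb on either side, divided by the library's peaks in units of 100000, and compared on the log2 scale (pseudocount 1) with limma over 19829 genes. Against the mean of the other 3 lines, 7 of the 10 genes had more peaks in GM12878 at an adjusted p under 0.05 (Benjamini-Hochberg), where 22.7% of all genes did. BACH2 alone had fewer (25.1% of all genes), and SPI1 and POU2F2 did not pass. The median difference of the 10 genes was 0.84 on the log2 scale, and that of all genes was -0.0172. With raw peak counts in place of the scaled ones, 51.5% of all genes were higher and 9.20% lower, the median of all genes moved to 0.336, and 8 of the 10 genes were higher with BACH2 still lower. Each of these 10 windows holds other genes, from 1 neighbour at EBF1 to 12 at IKZF3, and peaks were not assigned to a target gene.

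**Figure D2:**
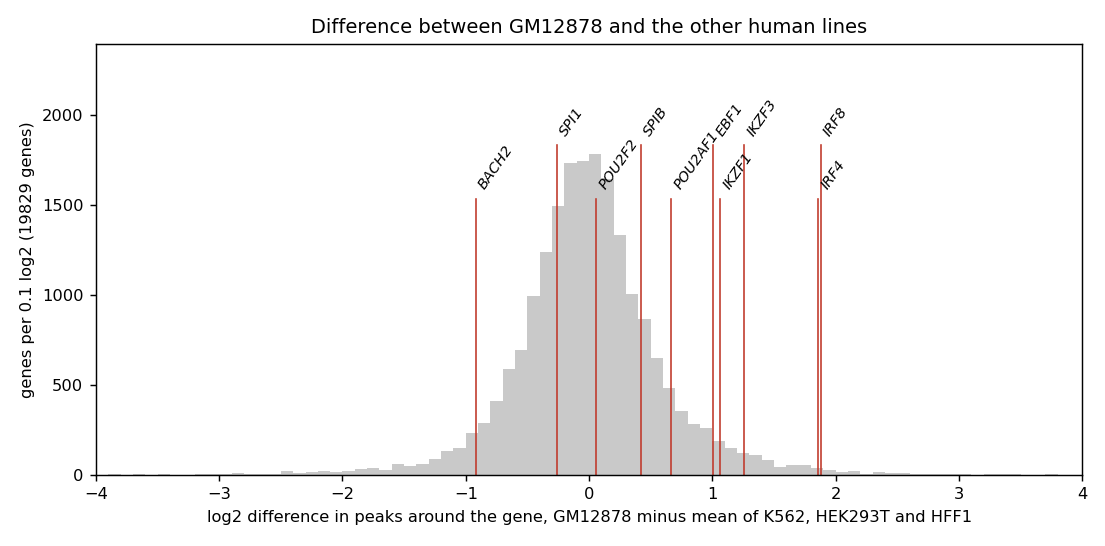
Distribution of the log2 difference in peaks around the gene between GM12878 and the mean of the other 3 human lines (x axis) over 19829 genes (y axis, genes per bin), with a red line for each of the 10 genes. IRF8 and IRF4 lie near the upper end and BACH2 near the lower end.

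EBF1 is the pioneer factor that commits lymphoid progenitors to the B lineage, and it lies on the minus strand at chr5:158695920-159099916. Its window held 51 and 61 peaks in GM12878, 13 and 14 in K562, 15 and 15 in HEK293T, and 44 and 45 in HFF1. GM12878 was the highest line and K562 the lowest, with HFF1 in between. Scaled to 100000 library peaks these were 54.5 ± 6.13 in GM12878, 18.1 ± 2.2 in K562, 28.7 ± 0.117 in HEK293T and 36.0 ± 2.01 in HFF1 (SD, n = 2). The log2 difference between GM12878 and the other lines was 1.01 ± 0.09 (SE, limma adjusted p = 8.05e-05), and 4.86% of genes had a larger one. Inside the gene body the fibroblast lists held 30 and 29 peaks, against 40 and 44 in GM12878 and 3 and 6 in K562. Of 38 regions of the EBF1 window called in HFF1, 19 were called in HFF1 alone, which at 50.0% is close to the 50.5% over all regions.

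Every line had peaks within 1 kb of the canonical EBF1 promoter. The tallest had its summit 492 to 516 bp upstream of the nearest annotated start, outside EBF1 and over an exon of LINC02202. Its height was 84.7 and 82.0 in GM12878, 53.5 and 51.9 in K562, 166 and 170 in HEK293T, and 39.5 and 43.7 in HFF1. The lines did not overlap, and HEK293T rather than GM12878 was the highest. A peak over an exon of EBF1 itself was lower, with HEK293T again the highest. Its height was 28.6 and 31.2 in GM12878, 22.2 and 20.8 in K562, 55.9 and 51.5 in HEK293T, and 17.7 and 20.4 in HFF1. A start site 2293 bp further into the gene had a peak in both GM12878 libraries (heights 31.5 and 36.9) and in the first HFF1 library (13.6), and in none of the other 5. The start that RefSeq lists for EBF1 lies within 1 kb of it, and GM12878 peaks overlapped the 100 bases before it in both libraries. Those bases are shown because they are the promoter that separated GM12878 from K562 and HEK293T.
EBF1 promoter, chr5:159097957-159098056, minus strand, GRCh38.p14: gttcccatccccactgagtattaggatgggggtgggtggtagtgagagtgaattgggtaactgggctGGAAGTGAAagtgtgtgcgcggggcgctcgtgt
Capitals mark the letters GGAANNGAA, a composite of ETS and IRF sites, found 33 bases before the RefSeq start. Among 15310 promoters of 250 upstream and 50 downstream bases, 6.41% hold these letters on either strand, and 1 of the 7 matched genes here does.

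**Figure D3:**
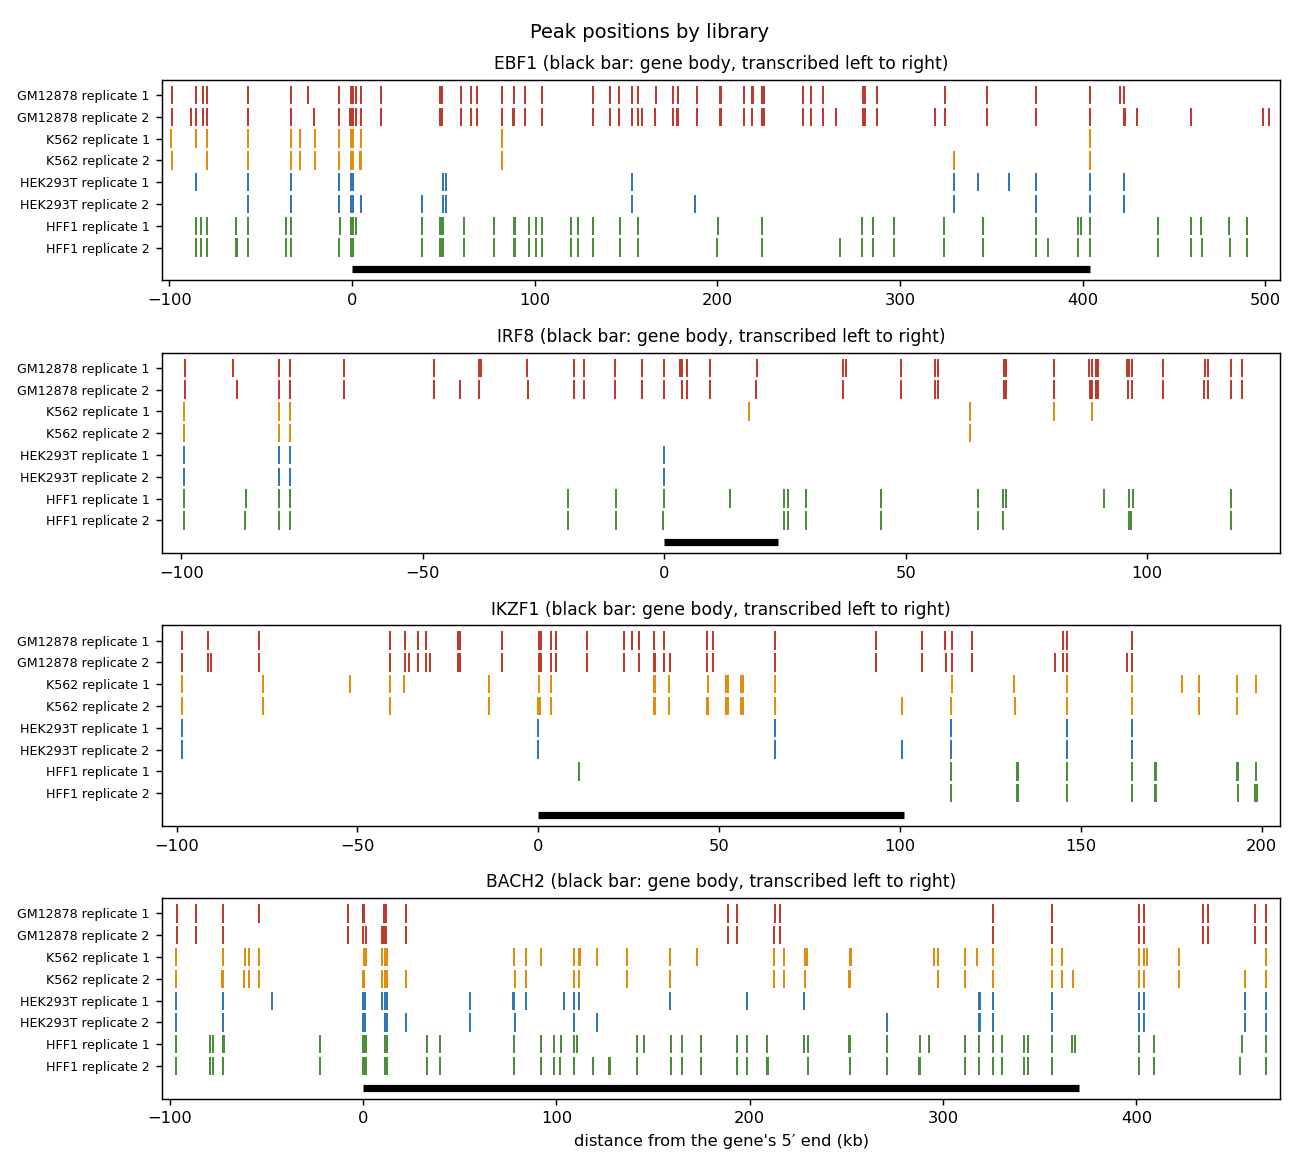
Peak centres in the 8 libraries (rows, coloured by line) around EBF1, IRF8, IKZF1 and BACH2, against the distance from the 5′ end of the gene in kb (x axis, transcription to the right), with the gene body as a black bar. GM12878 peaks are dense over EBF1 and around IRF8, and the body of BACH2 has a stretch of 166 kb with none in GM12878.

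SPI1 encodes PU.1, an ETS factor of myeloid and B cells, at chr11:47354860-47378547 on the minus strand. Its canonical promoter had a height of 54.3 and 51.9 in GM12878 and 40.3 and 43.2 in K562, and no peak in the 4 libraries of HEK293T and HFF1. The summits lay 20 to 55 bp upstream of a start site. The window around SPI1 held 16 and 20 peaks in GM12878, 22 and 15 in K562, 13 and 12 in HEK293T, and 22 and 18 in HFF1. These raw counts overlapped between lines. Scaled to library size they were 17.5 ± 2.51 in GM12878, 24.5 ± 4.90 in K562, 23.9 ± 1.26 in HEK293T and 16.1 ± 1.64 in HFF1 (SD, n = 2). The difference between GM12878 and the other lines was -0.26 ± 0.12 on the log2 scale and did not pass (limma adjusted p = 0.116). Against K562 alone the difference was -0.46 (adjusted p = 0.0331), and this did not hold when the first replicate of GM12878 or of K562 was left out (adjusted p = 0.211 and 0.214, in a range of 0.0174 to 0.953 over 18 alternatives).

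SPIB encodes the closest relative of PU.1 in B cells, at chr19:50418938-50431314 on the plus strand. Its start-site peak had a height of 56.7 and 57.1 in GM12878, with both summits 13 bp upstream of a start site. The tallest HFF1 peaks there had a height of 12.7 and 11.2, with summits 335 and 275 bp downstream, and each HFF1 library had a further peak of height 9.86 and 10.7 inside the GM12878 peak. K562 and HEK293T had none. The upstream bases are shown because peaks of both GM12878 and both HFF1 libraries overlapped them and no peak of K562 or HEK293T did.
SPIB promoter, chr19:50418838-50418937, plus strand, GRCh38.p14: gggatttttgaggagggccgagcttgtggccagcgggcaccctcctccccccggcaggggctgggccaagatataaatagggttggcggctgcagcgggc
None of the searched motifs had its letters in this window. Around SPIB, 35 and 33 peaks were found in GM12878, 28 and 26 in K562, 13 and 12 in HEK293T, and 22 and 20 in HFF1. The log2 difference between GM12878 and the other lines was 0.42 ± 0.07 (limma adjusted p = 0.0014), and with 50 kb on either side it was 0.016 (adjusted p = 0.897, the highest of 18 alternatives, the lowest being 0.000335). Scaled to library size, K562 stood above GM12878 at 36.1 ± 0.617 against 33.1 ± 1.84 peaks per 100000 (SD, n = 2), and that difference did not pass (log2 difference -0.12, adjusted p = 0.252).

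POU2AF1 encodes OCA-B, the coactivator that binds octamer factors on B-cell promoters, at chr11:111352255-111455630 on the minus strand. The canonical promoter had a height of 54.9 and 56.0 in GM12878, with summits 188 and 186 bp upstream of the start. In HFF1 it had a height of 20.1 and 20.9, with both summits 422 bp downstream, and it had no peak in K562 or HEK293T. When a summit within 250 bp of a start was required, a criterion chosen after the data had been seen, the canonical promoters of POU2AF1 and IRF4 were called in GM12878 alone (1.52% of all genes). POU2AF1 has 9 start-site groups, and 4 of the other 8 had peaks in GM12878 alone, of which 2 share the same peak. These peaks were low, with heights from 7.59 to 19.6, and none of the 4 was called so with 50000 peaks per library. The window held 26 and 26 peaks in GM12878, 8 and 7 in K562, 8 and 10 in HEK293T, and 26 and 28 in HFF1. As raw counts GM12878 and HFF1 were alike, and scaled to library size they were 25.3 ± 0.351 and 21.8 ± 2.02 (SD, n = 2). The log2 difference was 0.67 ± 0.10 against the other lines together (limma adjusted p = 0.00101) and 1.26 against K562 (adjusted p = 0.000108).

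A distal region of POU2AF1 seen in GM12878 alone is shown because it holds letters of a factor described here. The stretch is the summit base in the first GM12878 library with 50 bases on either side, on the plus strand of GRCh38, and capitals mark the motif match.
POU2AF1 intron, chr11:111410104-111410204: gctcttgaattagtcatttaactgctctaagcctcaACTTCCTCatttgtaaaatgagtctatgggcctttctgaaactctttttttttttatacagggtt
It carries the PU.1 letters GAGGAAGT, read on the minus strand, and the authors' deposited folds of its region were 7.79 and 7.85.

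POU2F2 encodes OCT2, the lymphoid octamer-binding factor, at chr19:42086110-42196585 on the minus strand. Every library had a peak within 1 kb of its canonical promoter. The tallest had a height of 63.1 and 60.0 in GM12878, 22.7 and 21.9 in K562, 17.2 and 17.2 in HEK293T, and 31.7 and 32.0 in HFF1. By height GM12878 was the highest line, and the lines did not overlap. By the authors' deposited fold it was the lowest, at 5.03 and 4.49 against 10.4 and 10.6 in K562. Summits of these peaks lay 748 to 782 bp upstream in 7 libraries and 31 bp upstream in the second GM12878 library. The 100 bases before the canonical start overlapped a peak in both GM12878 and both HFF1 libraries, and no peak of K562 or HEK293T. The window held 40 and 40 peaks in GM12878, 33 and 33 in K562, 19 and 17 in HEK293T, and 43 and 42 in HFF1. The log2 difference was 0.06 ± 0.07 (limma adjusted p = 0.522), and 43.2% of genes had a larger one. A further start-site group had a peak in K562 alone (heights 9.51 and 10.7).

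IRF4 is the interferon regulatory factor needed for plasma cell formation and class switching, at chr6:391739-411443 on the plus strand. At its promoter GM12878 had a height of 61.3 and 64.1 with summits 11 and 22 bp downstream of a start. The tallest HFF1 peaks had 10.7 and 12.1 with summits 517 and 474 bp downstream, and K562 and HEK293T had no peak. The window held 38 and 38 peaks in GM12878, 10 and 5 in K562, 3 and 7 in HEK293T, and 12 and 13 in HFF1. Scaled to library size GM12878 had 37.0 ± 0.512 and the other lines 9.87 ± 4.03, 9.57 ± 5.45 and 10.1 ± 0.976 in the order K562, HEK293T and HFF1 (SD, n = 2). These 3 lines did not differ beyond their spread. The log2 difference was 1.86 ± 0.28 (limma adjusted p = 0.00104), and 0.731% of genes had a larger one. Of the 23 regions called in GM12878 alone, 3 lay in the gene body, which is 19705 bp of a window of 219705 bp.

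IRF8 partners PU.1 on composite sites and acts in germinal centre B cells and in myeloid cells. The gene lies at chr16:85899116-85922606 on the plus strand. Its canonical promoter had a height of 69.5 and 68.1 in GM12878, 34.4 and 23.6 in HEK293T and 13.2 and 10.7 in HFF1, and no peak in K562. Start-site groups of IRF8 that lie 3664 and 9474 bp downstream had peaks in GM12878 alone, with heights of 54.3 and 53.1 at the nearer and 16.9 and 18.5 at the farther. The window held 39 and 36 peaks in GM12878, 7 and 4 in K562, 4 and 4 in HEK293T, and 19 and 16 in HFF1. The log2 difference was 1.88 ± 0.15 against the other lines together (limma adjusted p = 4.7e-05) and 2.21 ± 0.18 against K562 (adjusted p = 4.83e-05), and 0.716% of genes had a larger difference in the former. As at IRF4, most regions called in GM12878 alone lay outside the gene, with 4 of 22 in the body. The body is 23491 bp of a window of 223491 bp. The 3 distal regions of this kind with the highest mean deposited fold lay 28314, 18789 and 66383 bp upstream of the canonical start, between genes. The farthest is shown because it carries letters of 3 motifs.
IRF8 upstream, chr16:85832729-85832829, plus strand: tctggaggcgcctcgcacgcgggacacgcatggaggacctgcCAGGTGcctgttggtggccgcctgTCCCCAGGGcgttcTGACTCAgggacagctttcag
Capitals mark, from the left, the E-box CAGGTG, the EBF letters CCCNNGGGA on the minus strand and the AP-1 letters TGANTCA. The authors' deposited folds of this region were 11.0 and 8.67.

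IKZF1 encodes Ikaros, a zinc finger factor of all lymphoid cells and of their haematopoietic progenitors, at chr7:50304068-50405101 on the plus strand. Its first promoter had a height of 35.0 and 32.3 in GM12878, 21.7 and 23.9 in K562 and 25.8 and 19.3 in HEK293T, and no peak in HFF1. Downstream start-site groups at 4032, 13690 and 22933 bp from the canonical one had peaks in GM12878 alone, with heights from 22.8 to 31.5. The window held 31 and 37 peaks in GM12878, 25 and 24 in K562, 6 and 7 in HEK293T, and 11 and 10 in HFF1. Per 100000 library peaks the blood lines had 33.1 ± 3.67 and 32.7 ± 1.33, GM12878 first, and HEK293T and HFF1 had 12.4 ± 1.40 and 8.47 ± 0.232 (SD, n = 2). The log2 difference of GM12878 from the other lines was 1.07 ± 0.09 (limma adjusted p = 7.41e-05). From K562 it was 0.01 ± 0.12 (adjusted p = 0.949), and K562 exceeded the mean of HEK293T and HFF1 by 1.58 ± 0.10 (adjusted p = 1.16e-05), a difference that 1.31% of genes surpassed. Though the blood lines had like numbers of peaks, 18 of the 29 regions called in GM12878 at IKZF1 were called there alone (62.1%, against 40.6% over all regions), and 4 in GM12878 and K562 alone (3.25% over all regions).

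IKZF3 encodes Aiolos, the Ikaros relative of maturing B cells, at chr17:39757718-39864312 on the minus strand. Its canonical promoter had a height of 62.5 and 65.8 in GM12878, 12.2 and 15.3 in K562 and 27.1 and 26.7 in HFF1, and no peak in HEK293T. A start site 86087 bp downstream, near the end of the gene, had a peak in GM12878 alone (heights 29.2 and 29.4). The window held 45 and 41 peaks in GM12878, 20 and 19 in K562, 8 and 9 in HEK293T, and 13 and 15 in HFF1, with no overlap between the lines. The log2 difference was 1.26 ± 0.10 against the other lines together (limma adjusted p = 3.68e-05) and 0.66 ± 0.12 against K562 (adjusted p = 0.00188). With 200 kb on either side the latter was 0.212 (adjusted p = 0.0622, the highest of 18 alternatives, the lowest being 0.00043).

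Regions of the Ikaros genes are shown because their distal regions of highest deposited fold in GM12878 include matches to PU.1 and ETS-IRF letters, alongside 1 without a match. All are cut as above.
IKZF1 upstream, chr7:50281703-50281803: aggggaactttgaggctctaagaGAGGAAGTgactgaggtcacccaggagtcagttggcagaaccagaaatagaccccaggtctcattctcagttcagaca
IKZF3 intron, first, chr17:39794453-39794553: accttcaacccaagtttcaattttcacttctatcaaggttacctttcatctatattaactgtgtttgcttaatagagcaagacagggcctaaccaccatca
IKZF3 intron, second, chr17:39800689-39800789: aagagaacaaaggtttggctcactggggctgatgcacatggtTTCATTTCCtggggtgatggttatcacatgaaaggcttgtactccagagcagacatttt
Capitals mark the PU.1 letters at IKZF1, nothing in the first IKZF3 intron, and the ETS-IRF letters on the minus strand in the second. The authors' deposited folds of these regions were, in this order, 8.21 and 10.6, 14.8 and 15.0, and 9.65 and 11.7.

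BACH2 encodes a repressor that holds back plasma cell differentiation and binds AP-1-like sites with small Maf proteins, at chr6:89926528-90296843 on the minus strand. Its canonical promoter was open in all lines, and by height, though not by deposited fold (where HFF1 was lowest), GM12878 was the lowest, with 19.3 and 17.9 against 43.0 and 43.7 in K562, 86.1 and 85.8 in HEK293T and 25.9 and 27.7 in HFF1. A pair of start sites 77093 and 78598 bp into the gene shared a peak in K562, HEK293T and HFF1, with heights of 24.5 and 27.5, 110 and 92.3, and 37.4 and 35.4, and had none in either GM12878 library. That pattern held at 0.406% of the 42084 other promoters. The window held 23 and 23 peaks in GM12878, 38 and 34 in K562, 27 and 21 in HEK293T, and 47 and 44 in HFF1. Scaled to library size GM12878 was the lowest line, at 22.4 ± 0.310, against 48.0 ± 0.438, 45.9 ± 7.93 and 36.7 ± 0.242 (SD, n = 2). The log2 difference was -0.92 ± 0.09 (limma adjusted p = 0.000129), and 4.99% of genes had a smaller value. In 1 stretch of 166 kb, from 22.4 to 189 kb into the gene and 44.9% of its body, GM12878 had no peak, while K562 had 10 and 6, HEK293T 9 and 5, and HFF1 13 and 14. The longest such stretch in the other 9 genes was 32.2 kb, in EBF1, and as a share of the gene body the largest was 72.4%, in SPIB, a gene of 12.4 kb.

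Of 20 regions called in GM12878 around BACH2, 8 were called there alone, which at 40.0% is close to the 40.6% over all regions. An intronic region is shown because it holds the ETS-IRF letters on the minus strand and an E-box on the minus strand, both in capitals.
BACH2 intron, chr6:90108109-90108209, plus strand: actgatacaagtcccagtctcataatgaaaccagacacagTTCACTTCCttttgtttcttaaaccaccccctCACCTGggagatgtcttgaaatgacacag
It lay 188684 bp downstream of the canonical start, at the far edge of the stretch without GM12878 peaks, and the authors' deposited folds were 9.58 and 11.1.

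**Figure D4:**
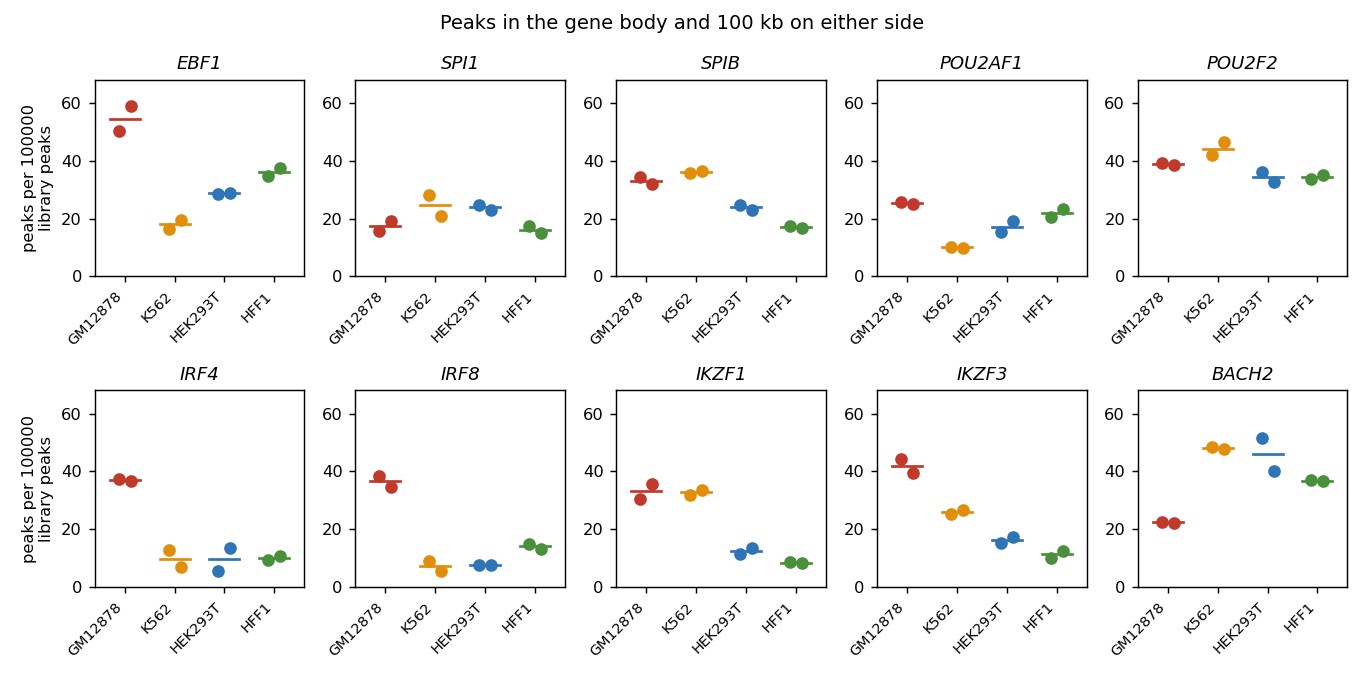
Peaks in the gene body and 100 kb on either side per 100000 library peaks (y axis) for each gene in the 4 lines (x axis), with 1 point for each library and a bar for the mean of 2. GM12878 stands above all other libraries at EBF1, POU2AF1, IRF4, IRF8 and IKZF3, level with K562 at IKZF1, and below all others at BACH2.

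Besides the 10 canonical promoters, the genes have 33 other start-site groups, all in 7 of the genes. Peaks were called in GM12878 alone at 10 of these 33 (3.67% of other promoters), spread over POU2AF1, IRF8, IKZF1 and IKZF3. Among genes with other promoters, 9.91% had at least 1 such promoter. Restricted to starts of protein-coding transcripts, 5 of 12 were called in GM12878 alone (3.69% of such promoters over all genes), in the same 4 genes. Among genes with other promoters of this kind, 6.28% had at least 1 called in GM12878 alone. No canonical promoter of those 4 genes was called in GM12878 alone. Thus the promoters seen in GM12878 alone were internal or distant alternative starts, beside a canonical promoter that was also open in at least 1 other line. The CpG content of the canonical promoters varied widely: the observed over expected ratio in 500 bp was 0.286 at SPIB, 0.292 at POU2F2 and 0.353 at SPI1, and 0.920 at IRF8, 0.950 at IKZF1, 0.963 at IKZF3 and 1.03 at BACH2. Over all genes the median was 0.777, and over the 357 genes whose canonical promoter was called in GM12878 alone it was 0.250.

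The peaks of all 8 libraries were merged into 243200 regions, of which 578 lay around the 10 genes. Of 307 called in both GM12878 libraries, 145 were in no other library, which is 47.2%, where the share over all regions called in GM12878 was 40.6%. For regions more than 1 kb from any annotated start the figures were 116 of 205, or 56.6%, against 49.1%. The genes differed among themselves more than the total differed from the background. The share was 71.9% at IRF4, 64.7% at IRF8, 62.1% at IKZF1, 61.5% at IKZF3, 50.0% at EBF1, 43.5% at POU2AF1 and 40.0% at BACH2, and 14.3% at POU2F2, 22.6% at SPIB and 25.0% at SPI1. EBF1 and IKZF3 each had 24 regions called in GM12878 alone, IRF4 had 23 and IRF8 22, where the median gene had 4. As many as 24 were found around 0.250% of genes, without regard to gene length. Of the 24 at EBF1, 22 lay in its introns, whereas 12 of the 16 distal ones at IRF8 lay between genes. The gene body is 403997 of 603997 bp of the window at EBF1 and 23491 of 223491 bp at IRF8. The counts were not set against these lengths. When GM12878 and the deeper lines were thinned to the depth of HEK293T, 95 of 219 regions were called in GM12878 alone, or 43.4%, against 37.5% over all regions.

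**Figure D5:**
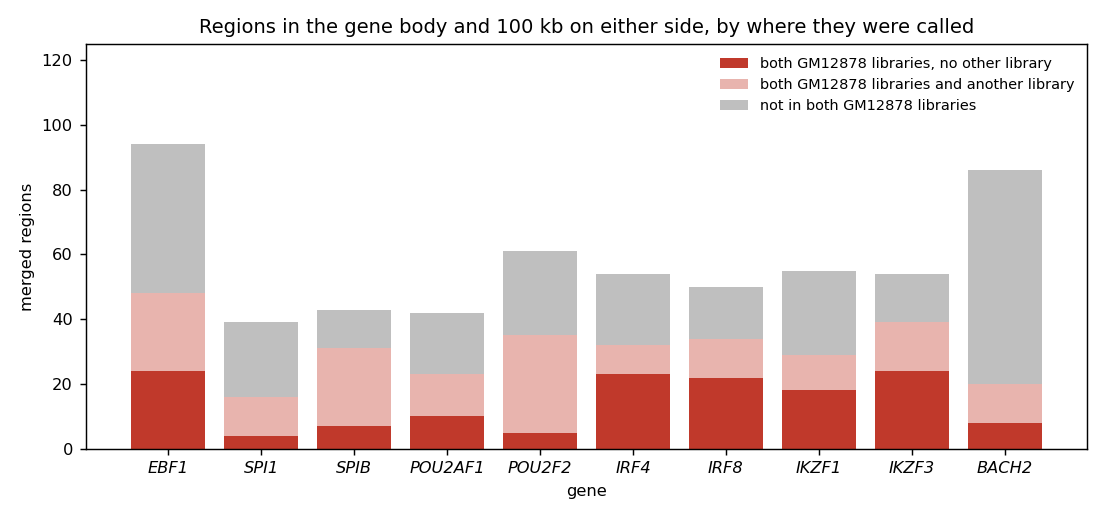
Merged regions around each gene (y axis, count) divided into those called in both GM12878 libraries and no other library (dark), those called in both GM12878 libraries and present in another library (light) and the rest (grey). The dark part makes up most of the GM12878 regions at IRF4, IRF8, IKZF1 and IKZF3, and 5 of 35 at POU2F2.

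Motif letters were counted within 50 bases of the first GM12878 summit of the 116 distal regions called in GM12878 alone. The octamer ATGCAAAT, the site that POU2F2 and its relatives bind, was present in 6 of them (5.17%, against 3.06% of all 31363 such regions and 0.365% of distal regions called in all 4 lines). PU.1 letters were in 5 (4.31% against 4.65%), the RUNX letters TGTGGTT in 10 (8.62% against 7.64%), ETS-IRF letters in 7 (6.03% against 7.51%), the interferon response letters GAAANNGAA in 9 (7.76% against 9.88%), AP-1 letters in 9 (7.76% against 11.6%) and EBF letters in 3 (2.59% against 2.60%). The NF-kB letters GGGNNTTCC were in none of the 116, where 4.32% of all such regions hold them, and the longer CTCF motif was likewise in none (0.676%). These differences were not tested, and counts this small set no order among the motifs. The letters of ETS-IRF and the interferon response can overlap on the same bases.

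Related gene lists were counted the same way. Over all genes, 22.7% had more peaks in GM12878 than in the other lines and 25.1% had fewer. Of 16 genes that these factors are known to act on in B cells, 13 had more and none fewer, with a median difference of 0.67. Those higher included CD79B, part of the B-cell receptor, at 0.48, MS4A1, which encodes CD20, at 2.21, the lectin genes CD22 at 1.12 and FCER2 at 1.04, CD40 at 0.39, CR2 at 0.52, the kinase gene BLK at 0.60 and the adaptor gene BLNK at 1.25 (limma adjusted p from 5.8e-05 to 0.0224 for these 8). Of these 16 genes, 9 had a canonical promoter called in GM12878 alone (1.79% of all genes), among them CD79A, CD79B, MS4A1, FCER2, BLK, PTPRC and CIITA. The count was 0 of 10 for the factors, a difference that was not tested. Of 32 other B-cell regulators, 16 were higher and 3 lower, with a median of 0.29. PAX5, the factor that maintains B-cell identity, was higher by 0.80, TCF3 by 0.27, FLI1 by 0.34, RUNX3 by 1.19, XBP1 by 0.83, MEF2C by 0.38, MYB by 0.88 and FOXO1 by 0.90 (adjusted p from 0.000274 to 0.0244), and RUNX1, FOXP1 and AFF3 were lower (-0.72, -0.69 and -1.42). Among these 32, the canonical promoters of BATF, SP140, AFF3 and CIITA were called in GM12878 alone. CIITA is in both lists.

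Paralogues of the factors that are not known as B-cell specific were counted as well. Of 18, 5 were higher in GM12878 (22.7% of all genes) and 5 lower (25.1%), close to those shares, with a median of -0.08. None had a canonical promoter called in GM12878 alone (1.79% of all genes). The family of EBF1 was split, since EBF2, EBF3 and EBF4 had fewer peaks in GM12878 (log2 differences -0.71, -3.44 and -0.46, limma adjusted p = 0.00116, 8.19e-06 and 0.00172). Within the Ikaros family IKZF2, which encodes Helios, was higher by 1.72 (adjusted p = 9.66e-05) and IKZF4 lower by -0.35 (adjusted p = 0.0128), and IKZF5 did not pass (-0.25, adjusted p = 0.134). BACH1, the widely expressed relative of BACH2, did not pass either (0.07, adjusted p = 0.545). All 3 lists were chosen with earlier results of these data known.

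The direct comparison with K562, which shares the GM12878 libraries with the comparison above, gave 5 of 10 genes higher in GM12878 (16.9% of all genes) and 2 lower (35.5%), and the median of all genes was -0.184. EBF1 (1.54), POU2AF1 (1.26), IRF4 (1.86), IRF8 (2.21) and IKZF3 (0.66) were higher, and SPI1 (-0.46) and BACH2 (-1.07) lower, while SPIB, POU2F2 and IKZF1 did not pass. Without scaling 37.1% of all genes were higher and 11.4% lower, the median of all genes was 0.237, and 8 of the 10 genes were higher. K562 against the mean of HEK293T and HFF1 gave 4 higher (43.4% of all genes), namely SPIB, POU2F2, IKZF1 and IKZF3, and 3 lower (15.1%), namely EBF1, POU2AF1 and IRF8, with a median of all genes of 0.245. The IRF8 difference (-0.50, adjusted p = 0.026) was lost in 6 of 18 alternatives (adjusted p from 0.00437 to 0.546). Without the second K562 library it was -0.206 (adjusted p = 0.203). It was also lost without either GM12878 library (-0.497) or the first HFF1 library (-0.458), all 3 with adjusted p from 0.0516 to 0.0805. That of EBF1 (-0.80) was lost when the lists were thinned (-0.336, adjusted p = 0.0634). Relative to that median the difference of POU2F2 (0.35) was small, and 40.8% of genes had a larger one.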

How the data were processed

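One peak list for each of 8 human libraries was used, and replicates had not been pooled. The mouse libraries were not used. The submitters' processing notes name cutadapt 3.2, Bowtie2 2.4.2, Picard, MACS2 2.2.7.1 and build hg38. No peak passed the end of a GRCh38 chromosome. The lists deposited by the authors give each peak a fold (a linear ratio over local background), −log10 values of p and q, a score and a summit position. The deposited score was not used, and −log10 q served only as a filter. Lists of equal size were ranked by −log10 p and then fold. The depth is known only through the recovered reads. Reads at the summit were solved from the deposited fold and −log10 p as a Poisson tail, for 99.9% of peaks or more in each library (no interval for counting error was computed).

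The 10 genes and all gene lists were chosen with earlier results of these data known. Start sites came from GENCODE release 44, with sites within 1 kb joined. Calling a promoter or region in a line required a peak in each of its 2 libraries, and calling it there alone required no peak in the other 6. Peaks per gene were tested with limma 3.58.1 (R 4.3.3) on log2 of peaks per 100000 library peaks plus 1, for genes with a peak in at least 2 libraries, with all 8 libraries in the fit. Data were simulated for the comparison of GM12878 with the other lines, in separate runs of 19805 and 19813 genes. Of 200 genes changed 2-fold, 7% were recovered, and of 200 changed 4-fold, 98.5%. The simulated counts were independent Poisson draws, whose spread was not matched to that between the replicates. These shares therefore do not give the power of the test on the data, where SPIB passed at 1.34-fold. Named distal regions were the 3 of each gene with the highest mean GM12878 fold among those called there alone. The sequences printed were chosen from these, with their motifs known, and from RefSeq promoters, in which 7 of the 10 genes matched. Motifs were searched on both strands. Some items are not reported here.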

Additional observations from a re-analysis of the deposited data

How the results depend on the processing

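Of 540 recomputed differences of the 10 genes over 18 settings in 3 comparisons, 509 kept their call, where a change of sign counts only for a value that passed the threshold in either setting. The difference of SPI1 from the other lines ranged from -0.399 to 0.191. Against the other lines together, EBF1, POU2AF1, IRF4, IRF8, IKZF1, IKZF3 and BACH2 kept theirs in all 18, and SPIB in all but 50 kb flanks. Against K562, SPI1 changed sign at 50000 peaks per library (0.06), and SPIB (0.322) and POU2F2 (0.27) did so without scaling by library. Without scaling, 10205 genes were higher and 1824 lower in GM12878 than in the other lines, and 7361 and 2258 than in K562, against 4493, 4972, 3359 and 7049 with it. Leaving out 1 library gave 2434 to 5009 genes higher and 2853 to 5417 lower than in the other lines, and the lowest counts came without a GM12878 library, when the lone one is assumed to vary like the other lines. Replicate numbers did not pair the libraries (correlations of deviations between -0.0167 and 0.0176), and with the replicate block 4436 genes were higher and 4866 lower, with the same number of the 10 genes called. Canonical promoters called in GM12878 fell from 10 to 9 when a summit within 250 bp was required (from 66.7% to 57.0% of all genes). With 50000 peaks per library they fell to 8 (58.5%). Those called in HEK293T fell from 5 to 3 by summit (from 63.3% to 54.5% of all genes). Those called in HFF1 fell from 8 to 4 by summit, or to 5 with 50000 peaks per library (from 72.0% to 61.2% and 60.4%). Those called in GM12878 alone rose from 0 to 2 under both (POU2AF1 and IRF4 by summit, IRF4 and SPIB by list size). The share of all genes called so went from 1.79% to 1.52% by summit and 1.38% by list size. Other promoters called in GM12878 alone fell from 10 to 5 with starts of protein-coding transcripts, to 5 thinned, to 5 by summit and to 4 with 50000 peaks. Over all genes, the share of other promoters called so went from 3.67% to 3.69%, 2.83%, 1.65% and 2.04%, in that order. With 50000 peaks none of those at POU2AF1 was called in GM12878 alone. Regions called in GM12878 alone fell from 145 to 95 thinned and 64 with 50000 peaks, and distal ones from 116 to 75 and 50. As a share of regions called in GM12878 they went from 47.2% to 43.4% and 39.8%, against 40.6%, 37.5% and 32.9% over all regions. The distal share went from 56.6% to 52.8% and 50.0%, against 49.1%, 47.7% and 44.9%. Without 1 library, regions called in GM12878 alone numbered 145 to 181, and distal ones 116 to 150. HEK293T had the shallowest libraries, which limits what could be called there.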

Other observations

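AFF3, a nuclear factor of lymphoid cells, shared with BACH2 a low number of peaks in GM12878, although its canonical promoter was called in GM12878 alone. Its window held 14 and 13 peaks in GM12878, 23 and 19 in K562, 17 and 17 in HEK293T, and 71 and 64 in HFF1. GM12878 was below and HFF1 above every other library in these raw counts, and the log2 difference between GM12878 and the other lines was -1.42 ± 0.07 (SE, limma adjusted p = 8.79e-06). AFF3 was singled out after its values were seen.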
